A study of Mus musculus with 6 samples.

Results

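LIM domains are paired zinc fingers that bind other proteins rather than DNA, and in striated muscle they are found in scaffolds of the Z-disc, the cell membrane and the nucleus. The genes described here are Lmo7 and 9 further LIM-domain genes of muscle: Limch1, Pdlim1, Pdlim3, Pdlim5, Pdlim7, Ldb3, Csrp3, Fhl1 and Fhl3. They were found by their gene symbols, and each symbol matched 1 row, which gave 10 of the 49315 genes in the table. All 10 passed the filter on low counts that left 15847 genes for testing. Lmo7 was picked because its count was higher in 1 of the groups compared below, so its difference there is a description of the choice and not a finding. The others were picked by family and location of their proteins, with earlier results of these data in view.

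RNA was sequenced from the gastrocnemius of male mice of the inbred strain C57BL6J in both groups. The muscle received AAV9-HSA-CAAHR or AAV9-HSA-GFP at 5 months of age and was taken 5 months later, with 3 libraries per group (CAAHR replicates 31, 34 and 36; GFP replicates 42, 43 and 46). CAAHR is mouse aryl hydrocarbon receptor (AHR) from which the ligand-binding domain was removed, so that it acts without a ligand, and GFP was the ZsGreen1 fluorescent protein. The human skeletal actin (HSA) promoter restricts both transgenes to muscle fibres, the share of fibres reached by the virus was not measured here, and no library here came from muscle without virus. The comparison addressed which transcripts differ between muscle with CAAHR and muscle with GFP, so GFP muscle is not an untreated baseline. The paper states from quantitative PCR that selected immune genes were not lower in CAAHR muscle than in muscle without virus. It attributes a local immune response to the GFP vector.

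AHR is a transcription factor that pairs with ARNT in the nucleus and binds DNA at a short core sequence, GCGTG. The PDZ-LIM proteins, encoded by Pdlim1, Pdlim3, Pdlim5, Pdlim7 and Ldb3, hold alpha-actinin and signalling kinases at the Z-disc, the border of the contractile unit. Csrp3 (muscle LIM protein) and the FHL proteins, which are built almost wholly of LIM domains, occur both at the sarcomere and in the nucleus, and Lmo7 joins the nuclear envelope protein emerin and the adherens junction to actin.

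Levels are CPM, the count relative to the library total, after TMM scaling, given as mean ± SD over 3 libraries. Differences are log2 fold changes of CAAHR over GFP from edgeR. Their standard error (SE) is the log2 fold change, without its sign, divided by the square root of the F statistic. A gene was called where the p-value adjusted over all tested genes was under 0.05. Library totals ranged from 43432994 to 58825752 counts. In the delivered pathway, Ahr was at 9.97, 22.8 and 17.3 CPM in the CAAHR libraries and at 2.47, 2.55 and 1.87 CPM in the GFP libraries, and Cyp1a1, the classic AHR target enzyme, was higher by 7.77 ± 0.20 on the log2 scale. Markers of the fibre defined the tissue in all 6 libraries. Their 6 genes summed to 115718 to 157835 CPM in CAAHR and 187597 to 190716 CPM in GFP muscle. Of the 6, 5 had a negative log2 fold change and 3 were called lower (Acta1, Ckm and Tnnt3). Mb went the other way at 1.03 ± 0.62, and Myh4, the most abundant, was at -0.31 ± 0.18. Neither was called. The summed level of markers of some other cells did not overlap between the groups. The 5 B and plasma cell genes summed to 8.92 to 18.5 CPM in CAAHR against 125 to 427 in GFP, the 5 macrophage genes to 9.36 to 17.4 against 18.4 to 45.4, the 4 adipocyte genes to 2.92 to 16.1 against 30.7 to 79.7, the 4 Schwann cell genes to 30.2 to 48.5 against 50.0 to 88.1, and the 4 T and NK cell genes to 0.886 to 1.52 against 1.76 to 5.17. Of their tested genes edgeR called 3 of 5 lower for B and plasma cells and 2 of 4 for adipocytes, and none of 5 for macrophages, 4 for Schwann cells and 1 for T and NK cells, where 4, 2 and 0 were at an unadjusted p under 0.05. DESeq2 called 3 macrophage and 2 Schwann cell genes, and limma-voom 0 and 1. The ranges overlapped for the 5 endothelial, 5 fibroblast, 5 smooth muscle, 4 satellite cell and 4 tendon genes. None of these markers was at 0 in all libraries. In whole muscle, fewer cells of a type and less RNA per cell cannot be told apart.

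The 250 bases before the RefSeq start site (GRCm38.p6) were searched on both strands for GCGTG, since it is the core that AHR contacts, and for the CArG box, the site of serum response factor in many muscle genes. All 10 genes matched RefSeq, with 17 start sites. The first start of Lmo7 is shown because it has the largest log2 fold change of the called genes of the set, that of Pdlim5 because it holds the AHR core at 2 places, and the more upstream start of Ldb3 because it holds both motifs. Capitals mark the matches.
Lmo7, chr14:101729678-101729927, plus strand: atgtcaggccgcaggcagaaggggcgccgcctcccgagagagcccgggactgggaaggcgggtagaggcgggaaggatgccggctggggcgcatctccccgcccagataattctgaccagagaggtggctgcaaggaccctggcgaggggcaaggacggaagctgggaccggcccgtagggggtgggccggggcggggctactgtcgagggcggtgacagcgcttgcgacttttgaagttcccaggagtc
Pdlim5, chr3:142395697-142395946, minus strand: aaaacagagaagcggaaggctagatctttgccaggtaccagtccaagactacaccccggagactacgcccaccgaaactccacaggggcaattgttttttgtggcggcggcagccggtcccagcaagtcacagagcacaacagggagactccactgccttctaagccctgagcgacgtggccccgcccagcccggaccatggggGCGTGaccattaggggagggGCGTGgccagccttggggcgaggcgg
Ldb3, chr14:34588682-34588931, minus strand: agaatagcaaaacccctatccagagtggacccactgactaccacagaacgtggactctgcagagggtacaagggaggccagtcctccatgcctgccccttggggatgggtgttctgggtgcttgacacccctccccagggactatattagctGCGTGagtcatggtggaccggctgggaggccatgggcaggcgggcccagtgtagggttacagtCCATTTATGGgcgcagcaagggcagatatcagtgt

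No capitals appear in the Lmo7 window, nor were there matches in the window of its other start, within the gene. In Pdlim5 the AHR core began 46 and 26 bases before the start. In Ldb3 it began 98 bases and the CArG box 35 bases before the start, and the last base of this window lies in an annotated exon. The AHR core was present for 4 of 10 genes (Ldb3, Pdlim1, Pdlim5 and Pdlim7), against 30.9% of 27025 genes in RefSeq. It was present in 5 of 17 windows, against 28.2% of 32851 windows. A CArG box was present for 2 of 10 genes (Fhl1 and Ldb3), against 1.62% of genes, and in 3 of 17 windows, against 1.47% of windows. Both Ldb3 windows overlap and hold the same GCGTG and the same CArG box, so each of these sites is counted in both windows. The longer form TNGCGTG, the E-box CACGTG and the form of the MEF2 site searched were found in none of the 17 windows. Of all windows, 4.10%, 6.02% and 0.508% held them. Other forms of the MEF2 site were not counted, such as ttatttttaa in the other Lmo7 window and ttatttttag in a Limch1 window. The absence of matches therefore covers only the form searched. TNGCGTG includes GCGTG, so that each of its matches also counts for the shorter core. The Lmo7 window had a GC content of 68.8%, where the median of all windows was 52.4%. None of the 3 called genes below (Lmo7, Limch1 and Fhl3) held the AHR core in these windows, which says only that these letters do not occur there.

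Lmo7 was the member with the clearest separation between the groups. Lmo7 (ENSMUSG00000033060) lies on chromosome 14 from 101729957 to 101934710 on the plus strand of GRCm38, with 16 annotated transcripts, and no other annotated gene overlaps it. It was at 228, 229.5 and 241 CPM in CAAHR replicates 31, 34 and 36 and at 65.6, 67.1 and 63.8 CPM in GFP replicates 42, 43 and 46. The 3 CAAHR libraries lay within a narrow band, and the lowest of them was above the highest GFP library by more than the spread of either group. The means were 233 ± 7.05 CPM against 65.5 ± 1.66 CPM (n = 3 each), a log2 fold change of 1.83 ± 0.09 or a 3.56-fold higher level. Over the 15 alternative settings the log2 fold change of Lmo7 ranged from 1.76 to 1.91, and it was called in each. These settings refit the counts for which Lmo7 was picked, so its calls describe that choice.

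The Lmo7 values also varied little among the libraries of a group. Its coefficient of variation was 3.03% in CAAHR and 2.54% in GFP, where the median of the 2461 tested genes within 2-fold of its GFP level was 8.46% and 7.20%. Of those genes, 9.31% in CAAHR and 9.02% in GFP had a lower coefficient. By log2 fold change Lmo7 stood at rank 115 of 15847 tested genes. Among the 86 called higher genes whose GFP level was at or above that of Lmo7, 1 had a larger log2 fold change, the lipoprotein-associated phospholipase Pla2g7 at 1.85 ± 0.19, which is named here after its value was seen. Lmo7 was picked for its higher count in these same libraries. Its small spread and its rank therefore cannot be told apart from that choice.

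Limch1 is the nearest relative of Lmo7 in this set, since both proteins pair a calponin homology domain with a LIM domain. It lies on chromosome 5 from 66745827 to 67057158, plus strand. Limch1 was at 146, 123 and 144 CPM in CAAHR and at 108, 102 and 101 CPM in GFP. All CAAHR libraries were above all GFP libraries, by a much smaller margin than for Lmo7. The log2 fold change was 0.41 ± 0.10, with means of 138 ± 12.7 and 104 ± 3.58 CPM. The call was lost in 7 of 15 alternatives, among them 5 of the 6 fits without 1 library, and the log2 fold change of Limch1 ranged from 0.20 to 0.49. Of 7 annotated genes that overlap Limch1, none shares an exon with it, and the most abundant, the antisense gene Gm15949, reached at most 2.07% of the Limch1 count.

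**Figure D1:**
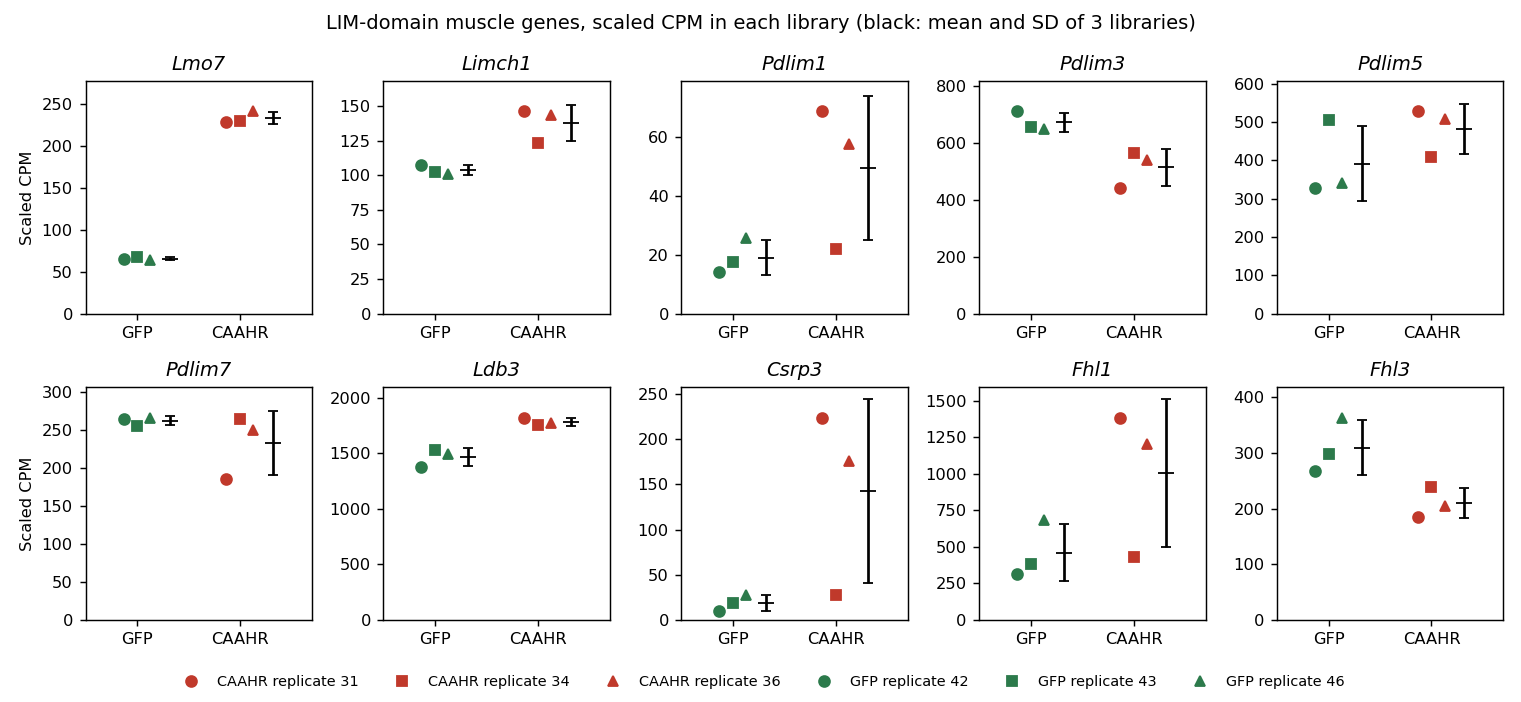
Scaled CPM of the 10 LIM-domain genes in each library, with the mean and SD of the 3 libraries of each group in black; every y axis starts at 0. The Lmo7 points form tight clusters at 63.8 to 67.1 CPM in GFP and 228 to 241 CPM in CAAHR, while for Csrp3, Fhl1 and Pdlim1 the square of CAAHR replicate 34 lies among or beside the GFP points.

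Among the PDZ-LIM genes, none was called in this fit and their directions differed. Ldb3 encodes ZASP (Cypher), which binds alpha-actinin at the Z-disc and in humans is a disease gene of myofibrillar myopathy. It was at 1821, 1753 and 1769.8 CPM in CAAHR and at 1377, 1532 and 1497 CPM in GFP. The Ldb3 groups did not overlap, with means of 1781 ± 35.4 and 1469 ± 81.3 CPM and a log2 fold change of 0.28 ± 0.11. Ldb3 passed the threshold with DESeq2.

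Pdlim3 (ALP) also binds alpha-actinin and was the PDZ-LIM gene with the lowest log2 fold change. Its levels were 440.4, 564 and 539.9 CPM in CAAHR and 711, 656 and 649 CPM in GFP. Here all CAAHR libraries were below all GFP libraries, the opposite order to Ldb3. The log2 fold change of Pdlim3 was -0.38 ± 0.12, and it passed the threshold with DESeq2, with no filter and without CAAHR replicate 34.

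Pdlim7 (Enigma) and Pdlim5 (ENH) each carry several LIM domains that bind kinases such as protein kinase C. Pdlim7 was at 186, 265 and 250.4 CPM in CAAHR and at 265, 256 and 267 CPM in GFP, a log2 fold change of -0.17 ± 0.14. Pdlim5 was at 527, 408 and 509 CPM in CAAHR and at 327, 504 and 341 CPM in GFP, a log2 fold change of 0.30 ± 0.18. In both genes 1 library stood apart from the others of its group, CAAHR replicate 31 for Pdlim7 and GFP replicate 43 for Pdlim5, and the groups overlapped.

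Pdlim1 (CLP36), which ties alpha-actinin to stress fibres, had the lowest level per length of the 10. It was at 68.8, 22.0 and 57.6 CPM in CAAHR and at 14.0, 17.6 and 25.6 CPM in GFP. CAAHR replicate 34 fell inside the GFP range and the other CAAHR libraries lay above it. The means were 49.5 ± 24.4 and 19.1 ± 5.93 CPM, and the log2 fold change was 1.37 ± 0.49. Pdlim1 passed the threshold with limma-voom, run here with sample weights, and without CAAHR replicate 34, where the log2 fold change was 1.71.

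Csrp3, a sensor of stretch at the Z-disc that is abundant in heart and slow fibres, had the largest log2 fold change of the 10 and the largest SD relative to its mean in both groups. It was at 224, 27.9 and 176 CPM in CAAHR and at 10.1, 18.7 and 27.6 CPM in GFP. The groups did not overlap, but CAAHR replicate 34 was next to GFP replicate 46. The means were 143 ± 102 and 18.8 ± 8.75 CPM, and the log2 fold change was 2.92 ± 0.89, which was not called. It passed the threshold with DESeq2, limma-voom, edgeR without robust estimation and without CAAHR replicate 34, where it was 3.40.

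The FHL genes went in different directions. Fhl1, a partner of titin and a human disease gene of reducing body myopathy, was at 1384, 428 and 1200.3 CPM in CAAHR and at 316, 379.6 and 681 CPM in GFP. As for Pdlim1, CAAHR replicate 34 lay within the GFP range, and the log2 fold change of 1.13 ± 0.53 was not called. Fhl3, an inhibitor of muscle gene transcription in cultured myoblasts, was at 186, 239 and 205 CPM in CAAHR and at 268, 298 and 364 CPM in GFP. The Fhl3 groups did not overlap, and it was called lower at -0.56 ± 0.14, with means of 210.2 ± 27.1 and 309.7 ± 49.3 CPM. The Fhl3 call was lost in 6 of 15 alternatives, among them library size scaling and 4 fits without 1 library. Over all 15 alternatives its log2 fold change was between -0.67 and -0.43.

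In all, 3 of the 10 genes were called, Lmo7 and Limch1 higher and Fhl3 lower, where 7.60% of all tested genes were called (3.04% higher and 4.57% lower). The groups were apart for 6 of the 10, 4 with CAAHR above and 2 with CAAHR below, where 29.9% of all tested genes had groups apart. Nothing is read from these shares, since the comparison was in view when the genes were picked. The median log2 fold change was 0.36 over the 10 genes and 0.30 over the 9 without Lmo7, beside 0.01 over all tested genes.

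The position of CAAHR replicate 34, which is 1 library, set 3 of the genes apart from Lmo7 and the rest. Its level divided by the mean of replicates 31 and 36 was 0.140 for Csrp3, 0.331 for Fhl1 and 0.348 for Pdlim1. It was 0.979 for Lmo7 and 0.977 for Ldb3, and the remaining genes ranged from 0.788 (Pdlim5) to 1.22 (Fhl3). This replicate lay inside the GFP range for 4 of the 10 genes (Pdlim1, Pdlim5, Pdlim7 and Fhl1), where 35.3% of tested genes showed that. It did so with both other CAAHR libraries above the range for 3 genes (Pdlim1, Pdlim5 and Fhl1), where 4.69% of tested genes did.

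The same library stood apart in its slow-fibre transcripts, the contractile genes of oxidative, slowly contracting fibres. The 9 slow-fibre genes, led by the myosin heavy chain Myh7, summed to 2783, 649 and 2518 CPM in CAAHR replicates 31, 34 and 36 and to 228, 333 and 461 CPM in GFP replicates 42, 43 and 46. All 9 had a positive log2 fold change, with a median of 2.56, 1 was called by edgeR (Myh7b), 8 by DESeq2 and 9 by limma-voom, and 8 were at an unadjusted edgeR p under 0.05. In this sum CAAHR replicate 34 lay closer to every GFP library than to replicates 31 and 36. Its 4 tendon genes were also low, at 32.3 CPM against 273 and 291 CPM in replicates 31 and 36. Csrp3 had the same order of the 6 libraries as the slow-fibre sum, and Pdlim1 and Fhl1 had it except that GFP replicate 46 was above CAAHR replicate 34. Lmo7, in contrast, was at 228 and 229.5 CPM in CAAHR replicates 31 and 34, and Ldb3 at 1821 and 1753 CPM.

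**Figure D2:**
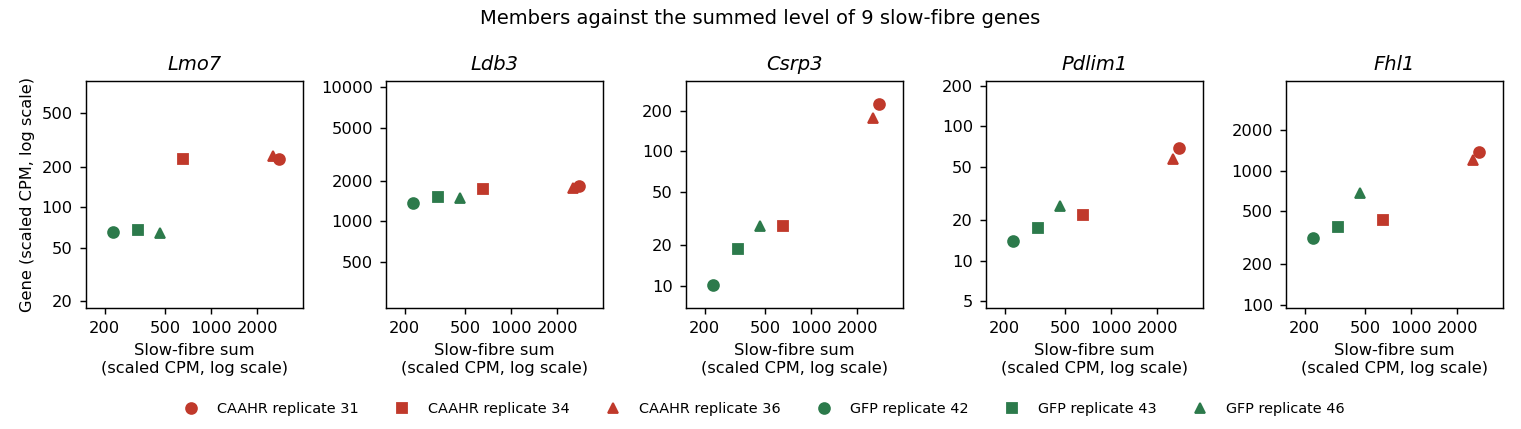
Scaled CPM of 5 genes against the summed scaled CPM of 9 slow-fibre genes, both on log axes that span the same range of folds for every gene; each point is 1 library. Lmo7 is at 229.5 CPM at a slow-fibre sum of 649 CPM and at 228 to 241 CPM at sums of 2518 and 2783 CPM. Ldb3 is at 1753 CPM at the first sum and at 1769.8 and 1821 CPM at the others. Csrp3, Pdlim1 and Fhl1 are far lower at 649 CPM than in the other CAAHR libraries.

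When the mean log2 CPM of these 9 genes was put into the fit, the log2 fold change of Lmo7 was 1.82 ± 0.15, near the value without it. Those of Csrp3, Pdlim1 and Fhl1 turned to -0.82 ± 0.20, -0.60 ± 0.18 and -1.0 ± 0.23, and that of Fhl1 then passed the threshold. The values for Pdlim5 and Pdlim7 also changed sign, to -0.07 ± 0.32 and 0.12 ± 0.21. Limch1, Ldb3, Pdlim3 and Fhl3 kept their signs at 0.20 ± 0.17, 0.20 ± 0.18, -0.12 ± 0.19 and -0.43 ± 0.25, and neither Limch1 nor Fhl3 was called. The covariate differs between the groups and takes a degree of freedom from 6 libraries, so a difference it removes cannot be told apart from one it shares with the group. The part of slow-fibre content and of the other marker differences in the values of these genes was not tested in any other way.

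**Figure D3:**
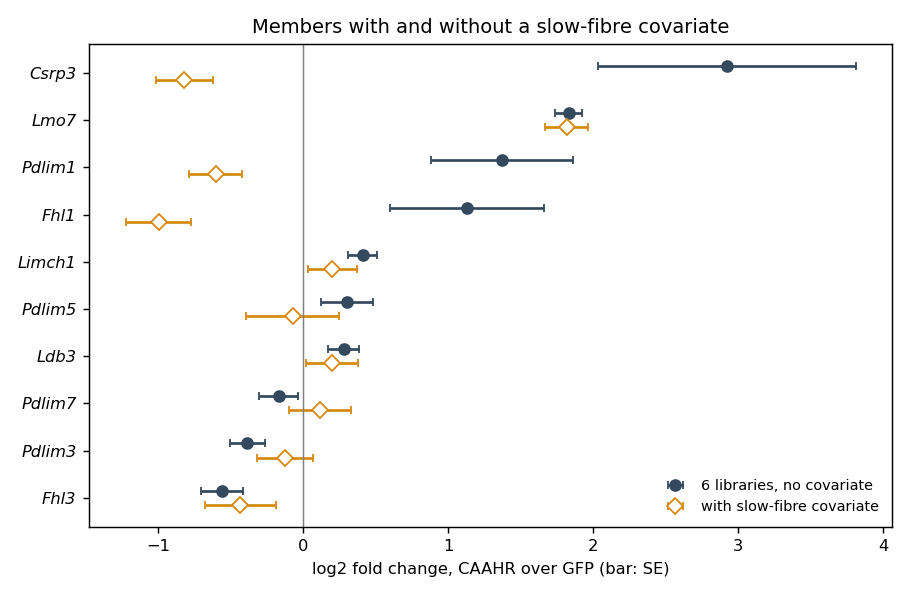
Log2 fold change (CAAHR over GFP) with its SE for each gene, without a covariate (filled circles) and with the mean slow-fibre level as a covariate (open diamonds). The symbols of Lmo7 coincide at 1.83 and 1.82, and those of Csrp3, Pdlim1 and Fhl1 lie on opposite sides of 0.

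Levels of different genes were compared as scaled CPM per kilobase of annotated exon. In GFP muscle the order of mean levels was Ldb3 (241), Fhl3 (184), Pdlim3 (131), Fhl1 (124), Pdlim7 (54.2), Pdlim5 (44.0), Limch1 (10.1), Csrp3 (7.03), Lmo7 (5.48) and Pdlim1 (3.63), all in CPM per kilobase. The neighbours Pdlim3 and Fhl1, Pdlim7 and Pdlim5, Limch1 and Csrp3, and Csrp3 and Lmo7 overlapped between libraries and are not ordered beyond their spread. The Z-disc genes Ldb3 and Pdlim3 were thus well above Lmo7, which was among the low members in control muscle.

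In CAAHR muscle Lmo7 reached 19.5 CPM per kilobase and stood above Limch1 at 13.4 CPM per kilobase. The libraries showed this without overlap, with 19.1 to 20.2 CPM per kilobase for Lmo7 against 12.0 to 14.2 for Limch1, where in GFP Lmo7 was at 5.34 to 5.61 and Limch1 at 9.81 to 10.5. Csrp3 had a mean of 53.4 and Fhl1 of 270.3 CPM per kilobase in CAAHR, again with wide ranges. With the longest transcript in place of the exon union as the length, Lmo7 moved above Csrp3, Pdlim3 above Fhl3, and Pdlim5 above Pdlim7 in GFP.

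**Figure D4:**
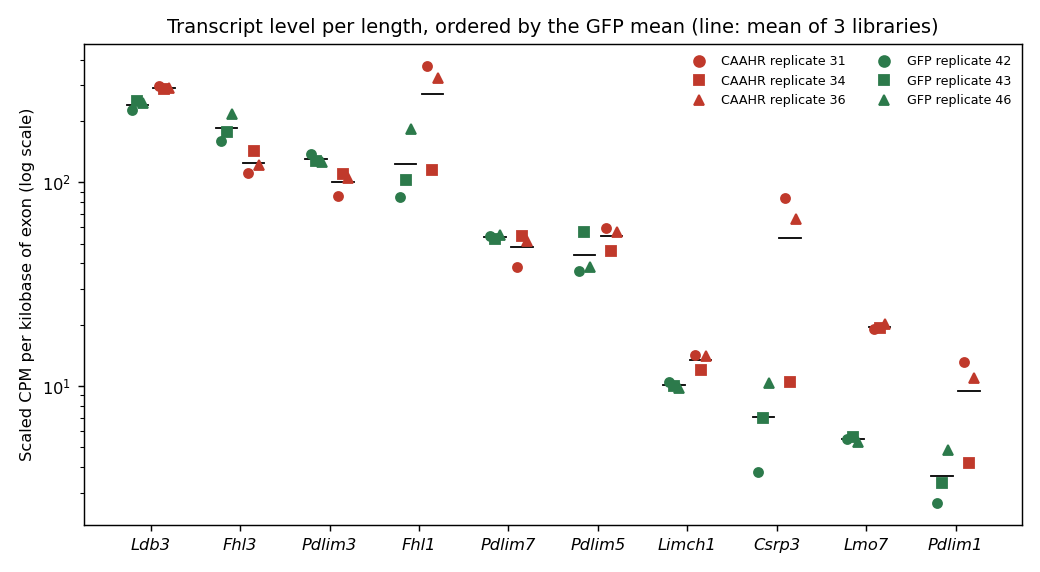
Scaled CPM per kilobase of exon on a log axis for each library, with genes in the order of their GFP mean and a line at the mean of 3 libraries. Lmo7 lies below Limch1 in the GFP libraries and above it in the CAAHR libraries.

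Over the 6 libraries, the tested genes with a mean of at least 5 CPM over these libraries whose log2 CPM followed Lmo7 most closely by Pearson's r were Hdhd2 (0.999), Cyp1a1 (0.999), Kcnk1 (0.999), Exoc3 (0.998) and Ahrr (0.998), out of 8874 candidates. The 6 libraries fall into the 2 groups, and Lmo7 was picked for its difference between them. So r is high for genes that separate the groups, and 22 genes had an r above 0.99. The list describes that choice. Kcnk1 and Ahrr reached that mean only through the CAAHR libraries. Cyp1a1 and Ahrr, the AHR repressor, are classic AHR targets. Kcnk1, a potassium channel, was at 14.6, 13.5 and 19.4 CPM in CAAHR and at 0.456, 0.577 and 0.453 CPM in GFP. Exoc3, a subunit of the exocyst whose gene lies next to Ahrr, had a log2 fold change of 1.14 ± 0.09 (adjusted p = 0.000198), and Hdhd2, a haloacid dehalogenase-like protein, one of 0.31 ± 0.08 (adjusted p = 0.0487). The Hdhd2 call was lost in 11 of 15 alternatives. By Spearman's rho, 45 genes tied at the highest value, and none of those 5 was among them. Of the LIM-domain genes, Ldb3 (0.942) and Limch1 (0.927) had the highest r with Lmo7, and Fhl3 (-0.862) and Pdlim3 (-0.850) the lowest.

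The genes beside Lmo7 on chromosome 14 were read from the same fit. On the side before its start lie the deubiquitinating enzyme gene Uchl3 (33.8 kb away), Commd6 (89.3 kb) and Tbc1d4 (121 kb), a regulator of glucose transporter traffic. Their log2 fold changes were -0.27 ± 0.11, 0.23 ± 0.14 and -0.34 ± 0.16. On the other side, the nearest tested gene was Kctd12, 1042 kb from Lmo7, with a log2 fold change of -0.70 ± 0.23. None of the 6 nearest tested genes, 3 on each side, was called by edgeR or limma-voom, and Uchl3 and Kctd12 were at an unadjusted edgeR p under 0.05. DESeq2 called 1, Kctd12, which edgeR also called lower with no filter, together with Tbc1d4, and without CAAHR replicate 31.

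The wider LIM-domain family gave the members a setting. Of 61 other LIM-domain genes, 50 were tested and 3 were called, beside 7.60% of all tested genes, with 28 positive and 22 negative log2 fold changes and a median of 0.02. Fhl2, a cofactor of the FHL family that is abundant in heart, was at 12.9, 3.03 and 9.25 CPM in CAAHR and at 1.14, 1.63 and 1.66 CPM in GFP. All CAAHR libraries were above GFP, with replicate 34 again lowest, and Fhl2 rose 5.67-fold, with an SE of 0.55 on the log2 scale (adjusted p = 0.0482). Crip3, a small cysteine-rich LIM protein, fell by 2.52 ± 0.44 on the log2 scale (adjusted p = 0.0116), from 2.78, 1.30 and 3.91 CPM in GFP to 0.475, 0.630 and 0.295 CPM in CAAHR, in the group with lower B and plasma cell markers. The part of those cells in the Crip3 value was not tested. The Fhl2 call was lost in 8 of 15 alternatives, with no filter, with at least 10 counts in every library, with the covariate and in 5 of the 6 fits without 1 library, and the Crip3 call in 3, with the covariate and without CAAHR replicate 31 or 36. With the covariate the log2 fold change was 0.18 for Fhl2 and -2.24 for Crip3.

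By subgroup, the PDZ-LIM, CRP and FHL relatives had 2 of 9 called (Fhl2 and Crip3) and a median of -0.33. The actin-binding and kinase LIM genes had a median of 0.09 over 17 tested genes. None of 17 adhesion LIM genes was called by edgeR, DESeq2 or limma-voom, with 2 at an unadjusted edgeR p under 0.05, and the most abundant were paxillin (Pxn) at -0.08 ± 0.11 and Limd1 at -0.02 ± 0.09. Among nuclear LIM genes 7 of 16 were tested and none was called by edgeR, DESeq2 or limma-voom, with 1 at an unadjusted edgeR p under 0.05, and the most abundant were Lmo4 at -0.09 ± 0.11 and Lmo2 at -0.37 ± 0.19. Of 6 genes listed as LIM-binding cofactors, none was called by edgeR, DESeq2 or limma-voom and 3 were at an unadjusted edgeR p under 0.05. Ldb1 was at -0.17 ± 0.11 (adjusted p = 0.409) and Ssbp3 at -0.29 ± 0.09 (adjusted p = 0.0857).

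The genes listed here as Z-disc partners were chosen for the structure that most of these proteins belong to, titin-binding ankyrin proteins among them. Of this list 6 of 32 genes were called (18.8%), 5 higher and 1 lower, with a median of 0.11. Of all tested genes 7.60% were called (3.04% higher and 4.57% lower), with a median of 0.01. The list was chosen with earlier results known, and the shares are given as a description. Xirp1 (Xin), an actin-binding protein of growing and injured fibres, was at 683, 441 and 453 CPM in CAAHR and at 172, 195 and 182 CPM in GFP. The groups were far apart, and Xirp1 rose by 1.52 ± 0.17 (adjusted p = 0.00137). Cavin4, a muscle caveolar coat protein, rose by 1.19 ± 0.13 (adjusted p = 0.00106), from 138, 128 and 110 to 255, 326 and 280 CPM. Unlike Csrp3 and Fhl1, Cavin4 was highest in CAAHR replicate 34.

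The ankyrin-repeat genes Ankrd1 (CARP) and Ankrd23 (DARP), whose proteins bind titin, rose by 1.40 ± 0.17 (adjusted p = 0.00212) and 0.66 ± 0.13 (adjusted p = 0.0167). The other call among the higher genes was Myoz3, a calsarcin of fast fibres, named here after its value was seen. Nexn (nexilin), an actin-binding Z-disc protein, fell by 0.57 ± 0.13 on the log2 scale (adjusted p = 0.0319). With the slow-fibre covariate Xirp1, Ankrd1, Ankrd23 and Nexn did not pass the threshold, at log2 fold changes of 1.09, 0.84, 0.88 and -0.59, so that the values of Ankrd23 and Nexn were no nearer to 0 than without it. Without 1 library, the call was lost in 3 of 6 fits for Ankrd23 and in 5 of 6 for Nexn.

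Alpha-actinin-2, the Z-disc anchor of the PDZ-LIM proteins, followed the pattern of Fhl1. Actn2 was at 1564, 548 and 1575 CPM in CAAHR and at 347, 543 and 812 CPM in GFP, with replicate 34 inside the GFP range and a log2 fold change of 1.12 ± 0.51 (adjusted p = 0.268). With the covariate it was -0.94. Actn3, its fast-fibre paralogue, was at -0.25 ± 0.16 (adjusted p = 0.397), and Tcap, the titin cap that binds Csrp3, at -0.13 ± 0.15 (adjusted p = 0.676).

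The genes listed here as nuclear partners are genes of the nuclear envelope and nuclear factors. Binding of each to Lmo7, Csrp3 or the FHL proteins was not checked. Of this list 3 of 23 tested genes were called, all lower, with a median of -0.05. Of all tested genes 7.60% were called and 4.57% were called lower. Srf, the serum response factor that FHL proteins bind, fell by 0.64 ± 0.10 on the log2 scale (adjusted p = 0.00648), from 128, 119 and 136 CPM in GFP to 76.0, 90.0 and 79.6 CPM in CAAHR. The nesprin gene Syne1, which links the nucleus to the cytoskeleton, fell by 0.84 ± 0.15 (adjusted p = 0.0129), and lamin B1 (Lmnb1) fell by 0.59 ± 0.14 (adjusted p = 0.0347). Emerin (Emd), the nuclear envelope protein bound by Lmo7, was at 21.3, 26.9 and 23.3 CPM in CAAHR and at 27.3, 28.5 and 25.9 CPM in GFP, with overlap and a log2 fold change of -0.19 ± 0.11 (adjusted p = 0.312). Lmna was at 0.16 ± 0.11 (adjusted p = 0.427). With the slow-fibre covariate edgeR called none of the listed genes, with 1 at an unadjusted p under 0.05. The log2 fold changes of Srf, Syne1 and Lmnb1 were then -0.47, -0.38 and -0.23. Without 1 library, the call was lost in 2 of 6 fits for Syne1 and in 5 of 6 for Lmnb1.

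Of 5 junction partners of Lmo7, none was called by edgeR, DESeq2 or limma-voom and none was at an unadjusted p under 0.05 by these tools. The most abundant were alpha-actinin-4 (Actn4) at 0.20 ± 0.15 and afadin (Afdn) at -0.01 ± 0.11. Emd and these 5 genes had log2 fold changes between -0.27 and 0.20. Lmo7, at 1.83, was picked for its difference, so nothing is read from the contrast with it.

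**Figure D5:**
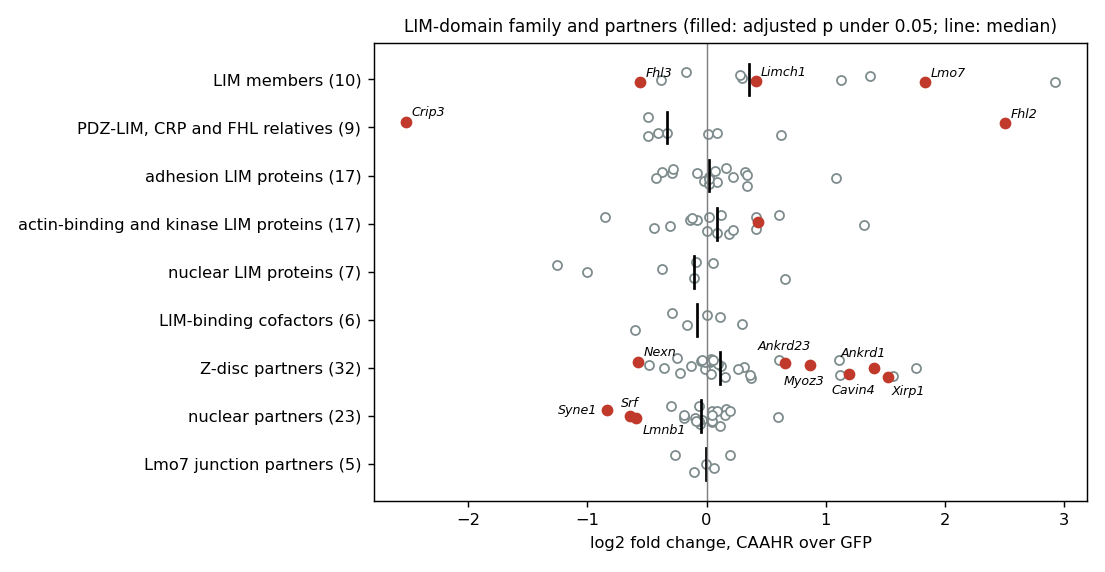
Log2 fold change (CAAHR over GFP) of each tested gene of the LIM-domain family and of its partners, with the number of tested genes in brackets; filled red points, most of them labelled, had an adjusted p under 0.05 and the black line is the median of the list. In the list that holds Lmo7, Csrp3 (2.92), Lmo7 (1.83), Pdlim1 (1.37) and Fhl1 (1.13) lie farthest above the line at 0.36. Lmo7 was picked for its higher count. The medians of the other lists lie between -0.33 and 0.11.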

How the data were processed

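Messenger RNA from gastrocnemius was sequenced in 6 libraries, and each title gave the group and replicate number. The authors trimmed reads with Trimmomatic 0.36, aligned them to GRCm38 with STAR 2.5.2b and summed unique exon reads by gene with featureCounts. The deposited values are these raw counts, neither normalised nor pooled. Strandedness was not given in the sources used here. Library totals ranged from 43432994 to 58825752. No library repeated another (within groups, the chi-square statistic divided by its degrees of freedom was 23.7 or more).

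The test was that of edgeR 4.0.16 in R 4.3.3 (filterByExpr, TMM, robust quasi-likelihood F test) and Benjamini-Hochberg adjustment over 15847 genes at 0.05. DESeq2 1.42.0, which the authors used, limma 3.58.1 (voom with sample weights), other scalings and filters, a slow-fibre covariate and leaving out each library were alternatives. The calculations were tested on simulated data. Positions and exon lengths came from GENCODE M21 (GRCm38), promoters from RefSeq (GRCm38.p6). The genes and lists were chosen with earlier results of these data known. Named are all 10 genes, in each list up to 4 called genes per direction by smallest p or else the 2 most abundant, Actn2, Actn3, Tcap, Emd, Lmna, Ldb1, Ahr and Cyp1a1, the 5 genes most like Lmo7 and its 3 neighbours on each side. Some genes that this rule would name are not reported here.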

Additional observations from a re-analysis of the deposited data

How the results depend on the processing

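No paired analysis was possible because CAAHR and GFP libraries have no number in common. The count of called genes was 1205 with edgeR (481 higher and 724 lower), 2470 without a filter on low counts, 1923 with DESeq2, 436 with the slow-fibre covariate and 535 to 1698 when 1 library was left out. Other scalings moved the split, to 358 higher and 990 lower with the upper quartile and to 876 higher and 600 lower with library size only. Among the 10 LIM-domain genes 3 were called, 6 with DESeq2, 5 with limma-voom and 1 to 6 without 1 library. That count was highest without CAAHR replicate 34 and lowest without CAAHR replicate 31 or 36 or GFP replicate 43 or 46. Lmo7 was called in every one of the 15 alternatives, but these refit the counts for which it was picked. The other LIM-domain genes had 3 calls, 7 without a filter, 5 with DESeq2, 5 with limma-voom and 0 (without CAAHR replicate 36) to 6 (without CAAHR replicate 34) with 1 library left out. With the covariate they had 3 calls, none shared with the reported ones. Z-disc partners had 6 calls, 11 with DESeq2, 10 with limma-voom, 2 with the covariate and 3 to 10 without 1 library, and nuclear partners 3 calls, 0 with the covariate and 1 to 4 without 1 library. The genes beside Lmo7 had 0 calls, 1 (Kctd12) with DESeq2 and without CAAHR replicate 31, 2 (Kctd12 and Tbc1d4) without a filter, and 1 (Klf5) with 5 genes on each side.

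With the covariate, 11 log2 fold changes changed sign, to -0.60 for Pdlim1, -0.072 for Pdlim5, 0.12 for Pdlim7, -0.82 for Csrp3, -1.0 for Fhl1, -0.94 for Actn2, 0.22 for Actn3, -0.31 for Actn4, 0.11 for Emd, 0.11 for Limd1 and 0.25 for Pxn. Values near 0 changed sign with library size only (Afdn 0.074, Limd1 0.060, Pxn 0.0016), with no filter (Afdn 0.0069) and with limma-voom (Afdn 0.040). Without 1 library they ranged from -0.097 to 0.072 for Afdn, -0.068 to 0.018 for Limd1, -0.16 to 0.023 for Lmo4, -0.17 to 0.00019 for Pxn and -0.24 to 0.0045 for Tcap. The cause of these changes was not tested. Of the checks of single genes, 559 kept direction and side of the threshold, 60 lost the call, 15 gained one and 25 changed sign.

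The labels do not say that the libraries came from separate mice, so p-values measure the spread between these samples, whatever its source. The lowest count of any of the 10 genes in any library was 488, so that the number of libraries limits their precision more than depth does.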
